A study of Mus musculus with 6 samples.

Results

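Glycolysis and hypoxia-response genes were followed in immune cells of mouse tumours by single-cell RNA sequencing. The set was named by symbol and holds 34 of the 32285 genes in the count matrices: 15 glycolytic enzymes, from hexokinase to lactate dehydrogenase, and 19 other genes that cells are known to raise when oxygen is low or that sense oxygen. All 34 were found. The tumours were MC38, a mouse colon adenocarcinoma line, grown from wild-type cells under the skin and taken on day 25. Live cells with CD45, the surface protein of leukocytes, were sorted for droplet 5′ RNA sequencing with enrichment of T cell receptor (TCR) transcripts. The host mice either kept Ctcf in regulatory T (Treg) cells (ctr, 3 samples) or carried a tamoxifen-inducible knockout of it there (cko, 3 samples); the labels call the samples of a group biological replicates. The driver of the knockout, the age of the mice and any treatment of ctr mice are not stated in the labels.

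Glycolysis turns glucose into pyruvate, and lactate dehydrogenase turns pyruvate into lactate, so that ATP can be made without oxygen. Hypoxia-inducible factors (HIF) are DNA-binding proteins whose alpha subunit is hydroxylated by prolyl hydroxylases such as Egln1 and destroyed while oxygen is present. When oxygen falls the subunit persists and turns on glucose carriers, most glycolytic enzymes, the vessel growth factor Vegfa and genes of mitophagy, and activated T cells and inflammatory macrophages also use glycolysis when oxygen is at hand.

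Cells were clustered without the genes described here, and clusters were named from marker genes as Treg-like, conventional CD4 T-like, CD8 T-like, natural killer (NK)-like, monocyte- and macrophage-like and conventional dendritic cell (cDC)-like; the short names are used from here on. The libraries held 45322797 to 55515267 transcript molecules (UMIs) each. The samples had 5574 to 6852 kept cells, with medians of 5135 to 7915.5 UMIs per cell, the classes described here had 71 (conventional CD4 T, ctr 2) to 2412 cells per sample (monocytes and macrophages, ctr 2), and any pair of samples shared 33 to 71 cell barcodes. Of the markers that named the clusters, all 8 Treg, 9 NK, 12 macrophage, 7 monocyte and 12 cDC markers were highest in their own class. For CD8 T cells it was 5 of 7, with Gzmb and Prf1 higher in NK cells, and for conventional CD4 T cells 4 of 7, with Cd28 and Icos higher in Treg and Tcf7 in NK cells. Gates on fixed numbers of marker UMIs per cell called 225 of the cDC cells cDC, 878 monocyte or macrophage and 954 nothing, and of the conventional CD4 T cells 177 conventional CD4 T, 132 Treg and 1237 nothing. Ctcf in Treg cells was 71.5, 82.1 and 89.5 in ctr and 53.3, 61.3 and 59.1 in cko, in counts per 1000000 UMIs of the class (CPM, replicates 1, 2 and 3 in order, as in all values that follow), and fell (log2 fold change -0.56, standard error 0.13, adjusted p = 0.0133). It did not pass in the other 5 classes (adjusted p = 0.086 to 0.949). Samples cko 1 and cko 3 shared 167 TCR clonotypes, which took in 84.08% and 72.31% of their cells with a paired receptor, against 0 to 3 shared clonotypes in each of the other 14 pairs of samples. What this sharing comes from was not tested. Sample ctr 1 was the highest ctr sample for the summed level of both gene groups in all 6 classes, and for 30 of 34 genes in monocytes and macrophages. For the 34 genes in the whole classes, the calls are therefore also given with cko 1 and cko 3 added together as 1 sample, and without ctr 1. Calls within single clusters, without cells gated as another class and for genes of the further lists are not given in these ways. Nor is the test of Treg cells against monocytes and macrophages.

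Promoters are shown first for genes that moved together, since HIF binds a short core in DNA. Of the 34 genes, 11 were higher in cko in both monocytes and macrophages and cDC, as described further on. Of these, 8 had a single promoter in the RefSeq table (GRCm38.p6), and the 5 whose window lay outside the exons of coding transcripts are printed, each over the 150 bases before the start of transcription. Capitals mark the HIF core, ACGTG or GCGTG, on either strand, so that a core on the other strand reads CACGT or CACGC; the run CACGTG is a core on both strands.
Hif1a, chr12:73907717-73907866, plus strand: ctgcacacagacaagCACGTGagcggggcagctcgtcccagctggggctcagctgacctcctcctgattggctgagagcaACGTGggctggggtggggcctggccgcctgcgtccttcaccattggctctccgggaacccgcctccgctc
Hk2, chr6:82774455-82774604, minus strand: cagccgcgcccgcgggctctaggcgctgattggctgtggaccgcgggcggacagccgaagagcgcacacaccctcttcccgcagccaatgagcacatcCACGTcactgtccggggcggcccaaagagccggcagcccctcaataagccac
Pgk1, chrX:106186950-106187099, plus strand: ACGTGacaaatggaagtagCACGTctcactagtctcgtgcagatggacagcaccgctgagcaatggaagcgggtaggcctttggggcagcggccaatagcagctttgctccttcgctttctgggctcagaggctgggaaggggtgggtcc
Bnip3, chr7:138909507-138909656, minus strand: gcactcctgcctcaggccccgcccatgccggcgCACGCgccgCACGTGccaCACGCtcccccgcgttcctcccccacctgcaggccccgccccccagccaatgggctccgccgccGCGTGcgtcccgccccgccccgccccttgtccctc
P4ha2, chr11:54100774-54100923, plus strand: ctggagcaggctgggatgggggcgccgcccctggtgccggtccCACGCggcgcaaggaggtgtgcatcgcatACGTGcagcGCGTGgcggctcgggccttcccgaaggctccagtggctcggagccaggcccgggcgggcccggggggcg
All 5 windows hold a core, as do the 3 that are not printed. Among the 3 genes with several entries, a core was found in neither entry of Vegfa, in 1 of 3 entries of Aldoa and in 1 of 2 of Pkm. In Hif1a, Bnip3 and P4ha2 the annotated gene begins upstream of the start used here. In Hif1a, CACGTG begins at position -135 counted back from the start and a further core at -70. In Bnip3, CACGTG at -108 lies between cores at -117 and -99. Over all promoters of the 32 genes with an entry, 34 of 50 (68.0%) held a core in 150 bases, against 28.59% of 32851 entries in the table, and over 250 bases the shares were 78.0% and 38.6%. The 34 genes were chosen as glycolysis and hypoxia genes, and the entries of the table were not matched to them for base content. Among genes with 1 entry that passed in neither myeloid class, Gapdh, Ddit4, Pfkl and Pfkfb4 also held a core, and Gpi1 and Tpi1 did not. A match describes the letters in these windows and shows no binding.

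Summed levels of both groups by class are described without a test, since classes are clusters. In ctr mice the 15 glycolytic enzymes were highest in CD8 T cells (18579, 13611 and 15030.0 CPM in ctr and 13496, 17168 and 13689 CPM in cko) and Treg cells (18392, 14532 and 13708 CPM in ctr and 13296, 12976 and 13709.6 CPM in cko). They were lowest in NK cells (14262, 9988 and 11263 CPM in ctr and 10688, 10716 and 8777 CPM in cko) and cDC (12516, 10831 and 11821 CPM in ctr and 14624, 12216 and 14824 CPM in cko), and neighbouring classes overlapped. The 19 other hypoxia genes were highest in Treg cells of ctr mice (3039, 2444 and 2306 CPM in ctr and 2433, 2236 and 2454 CPM in cko). In monocytes and macrophages they summed to 2469, 1872 and 1757 CPM in ctr and 3464, 3482 and 3216 CPM in cko, so that in cko these cells stood above every other class. Dendritic cells followed the same direction for these genes (1385, 1009 and 1078 CPM in ctr and 2398, 1831 and 2369.6 CPM in cko), and in both myeloid classes every cko sample lay above every ctr sample.

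**Figure D1:**
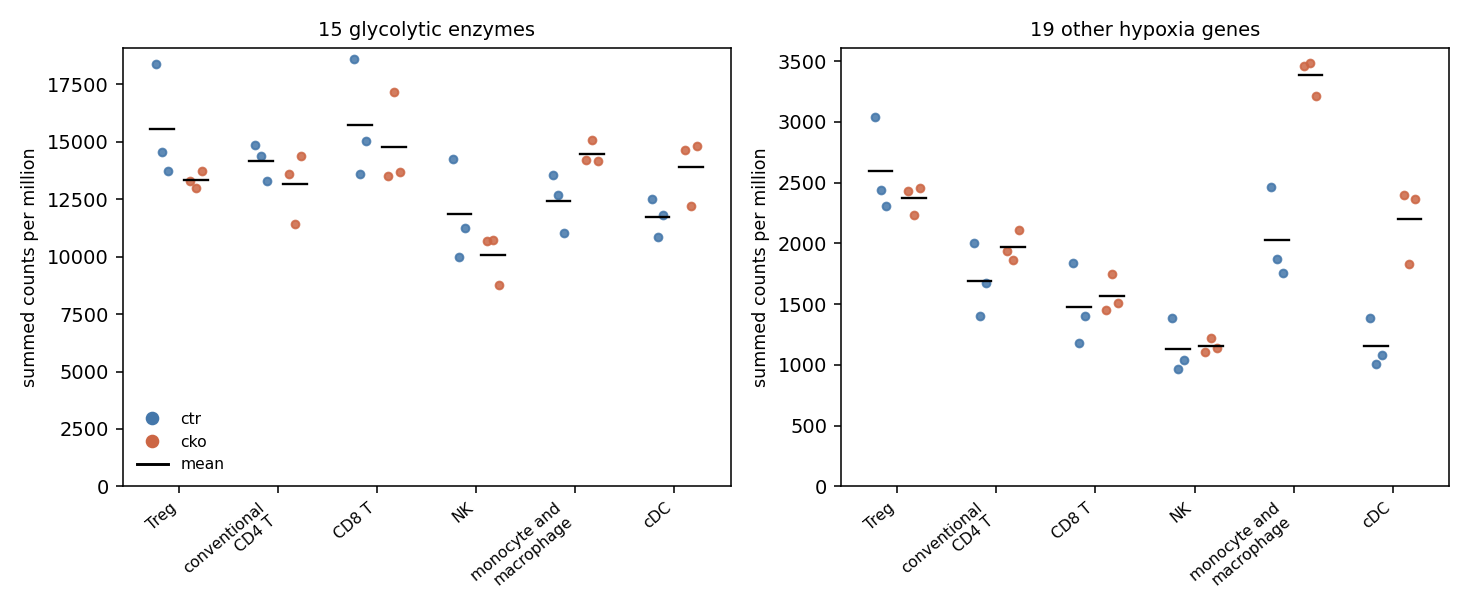
Summed level in CPM of the class (vertical axes from 0) of the 15 glycolytic enzymes (left) and the 19 other hypoxia genes (right) in 6 cell classes, 1 point per sample, with black bars for the mean of 3 samples. For the other hypoxia genes all cko points lie above all ctr points in both myeloid classes, and the groups overlap in the 4 lymphoid classes.

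Monocytes and macrophages of cko tumours carried more transcript of genes of both groups. Of the 34 genes, all of them tested, 20 rose and 0 fell (edgeR quasi-likelihood test, Benjamini-Hochberg adjusted p under 0.05), where 12.3% of the 11319 genes tested rose and 11.5% fell. The rises took in 9 of 15 glycolytic enzymes and 11 of 19 other hypoxia genes, with median log2 fold changes of 0.33 and 0.66 against -0.02 over all genes tested. Vegfa, Hif1a, Hk2, the lactate exporter Slc16a3 and Higd1a had the smallest adjusted p. The p-values cover only the spread among the 6 samples, and the number of animals behind each is not stated in the labels.

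Hif1a (chr12:73901375-73947530, plus strand, GRCm38), which encodes the oxygen-regulated alpha subunit, stood at 225, 212 and 204 CPM in ctr and 374, 432 and 381 CPM in cko in monocytes and macrophages. Every cko value lay above every ctr value (log2 fold change 0.94, standard error 0.09, adjusted p = 0.000225). Its hydroxylase Egln1, also a known HIF target, rose with a log2 fold change of 0.63 (adjusted p = 0.0141), and Egln3 was at 0.82 without passing (adjusted p = 0.0921). Vegfa (chr17:46016993-46032369, minus strand) stood at 386, 326 and 317 CPM in ctr and 836, 854 and 755 CPM in cko. The fold in the fit was 2.47, with no overlap between the groups (log2 fold change 1.31, standard error 0.11, adjusted p = 0.000112).

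Among carriers and gates of pyruvate, Slc16a3 (chr11:120948480-120960868, plus strand), which exports lactate, stood at 211, 162 and 153 CPM in ctr and 398, 330.1 and 355 CPM in cko, and again all cko samples were above all ctr samples (log2 fold change 1.10, standard error 0.14, adjusted p = 0.00124). Slc2a1 (chr4:119108711-119137983, plus strand), the glucose carrier known as GLUT1, stood at 293, 221 and 198 CPM in ctr and 273, 316 and 259.7 CPM in cko. Its groups overlapped, with ctr 1 inside the cko range, and it did not pass (log2 fold change 0.31, standard error 0.15, adjusted p = 0.179). Pdk1, a kinase that restrains the entry of pyruvate into the mitochondrial cycle, passed at 0.44 although its groups overlapped slightly (adjusted p = 0.046).

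At the kinase steps early in glycolysis, Hk2 (chr6:82725025-82774454, minus strand), the inducible hexokinase, stood at 85.1, 68.5 and 66.7 CPM in ctr and 129, 137 and 133 CPM in cko. The groups were well apart (log2 fold change 0.91, standard error 0.11, adjusted p = 0.000651), while the constitutive Hk1 was at 0.31 and did not pass (adjusted p = 0.056). Pfkp (chr13:6579768-6648777, minus strand), the platelet form of phosphofructokinase, stood at 126, 106 and 89.4 CPM in ctr and 178, 205 and 182 CPM in cko, with cko above ctr throughout (log2 fold change 0.87, standard error 0.13, adjusted p = 0.00215). The liver form Pfkl (0.31) and the muscle form Pfkm (-0.38) did not pass.

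At the later steps the log2 fold changes that passed were 0.30 to 0.67. Pgk1 (chrX:106187100-106203699, plus strand), phosphoglycerate kinase, stood at 480.2, 446 and 398 CPM in ctr and 714, 642 and 661 CPM in cko, and its groups did not overlap (log2 fold change 0.67, standard error 0.10, adjusted p = 0.00193). Ldha (chr7:46841475-46855627, plus strand), which makes lactate, stood at 996, 946 and 806 CPM in ctr and 1064, 1177 and 1076 CPM in cko. The lowest cko value was only just above the highest ctr value (log2 fold change 0.33, standard error 0.10, adjusted p = 0.0362), and the call was lost without any 1 sample other than ctr 1. Aldoa, Aldoc, Pgam1, Eno1 and Pkm rose by 0.30 (Eno1) to 0.44 (Aldoc) on the log2 scale, and Gapdh (0.17), Tpi1 (0.25) and Gpi1 (0.11) did not pass. Gapdh, Ldha, Tpi1, Pgk1, Pgam1 and Aldoa have processed pseudogenes and Eno1 a near-identical copy, Eno1b, so how the counting shared reads among copies leaves their levels uncertain.

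Genes of mitochondria, chromatin and collagen made up most of the other rises. Higd1a (chr9:121848563-121858362, minus strand), a small protein of the inner mitochondrial membrane, stood at 213, 182 and 168 CPM in ctr and 326, 316 and 304 CPM in cko (log2 fold change 0.81, standard error 0.11, adjusted p = 0.00109). Kdm3a (chr6:71588972-71632990, minus strand), a histone H3 lysine demethylase, stood at 26.1, 20.8 and 18.8 CPM in ctr and 30.6, 34 and 33.9 CPM in cko (log2 fold change 0.64, standard error 0.13, adjusted p = 0.00799). For both genes all cko values exceeded all ctr values. Bnip3 (chr7:138890836-138909519, minus strand), a receptor for mitophagy, stood at 185, 116 and 96.8 CPM in ctr and 253, 234 and 222 CPM in cko. Here ctr 1 lay nearest to the cko samples (log2 fold change 0.89, standard error 0.24, adjusted p = 0.0403), and the call was lost without any 1 sample other than ctr 1. The collagen prolyl hydroxylases P4ha1 (0.36) and P4ha2 (1.24, on 22, 22 and 22 counts in ctr and 38, 16 and 27 in cko) and Ankrd37 (0.82) also rose, and Bnip3l, Ndrg1, Ddit4, Pfkfb3, Pfkfb4 and Mxi1 did not pass, at -0.41 (Pfkfb4) to 1.01 (Mxi1).

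How many of these 20 calls held depended on the samples. Without each of the 6 samples in turn, 9 held every time: Vegfa, Hif1a, Hk2, Higd1a, Slc16a3, Pgk1, Pfkp, Kdm3a and P4ha1. The number called was 9 without cko 1, 10 without ctr 3, 11 without ctr 2, 12 without cko 3 and 13 without cko 2. It was 29 without ctr 1, of which 28 were higher. The shares of all genes called in these fits are not given, so the counts were not set against them. With cko 1 and cko 3 added together, 10 genes were called and all 10 were higher, where 13.1% of all genes were called in either direction, among them Vegfa (log2 fold change 1.31, adjusted p = 0.00088) and Hif1a (log2 fold change 0.97, adjusted p = 0.00162).

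**Figure D2:**
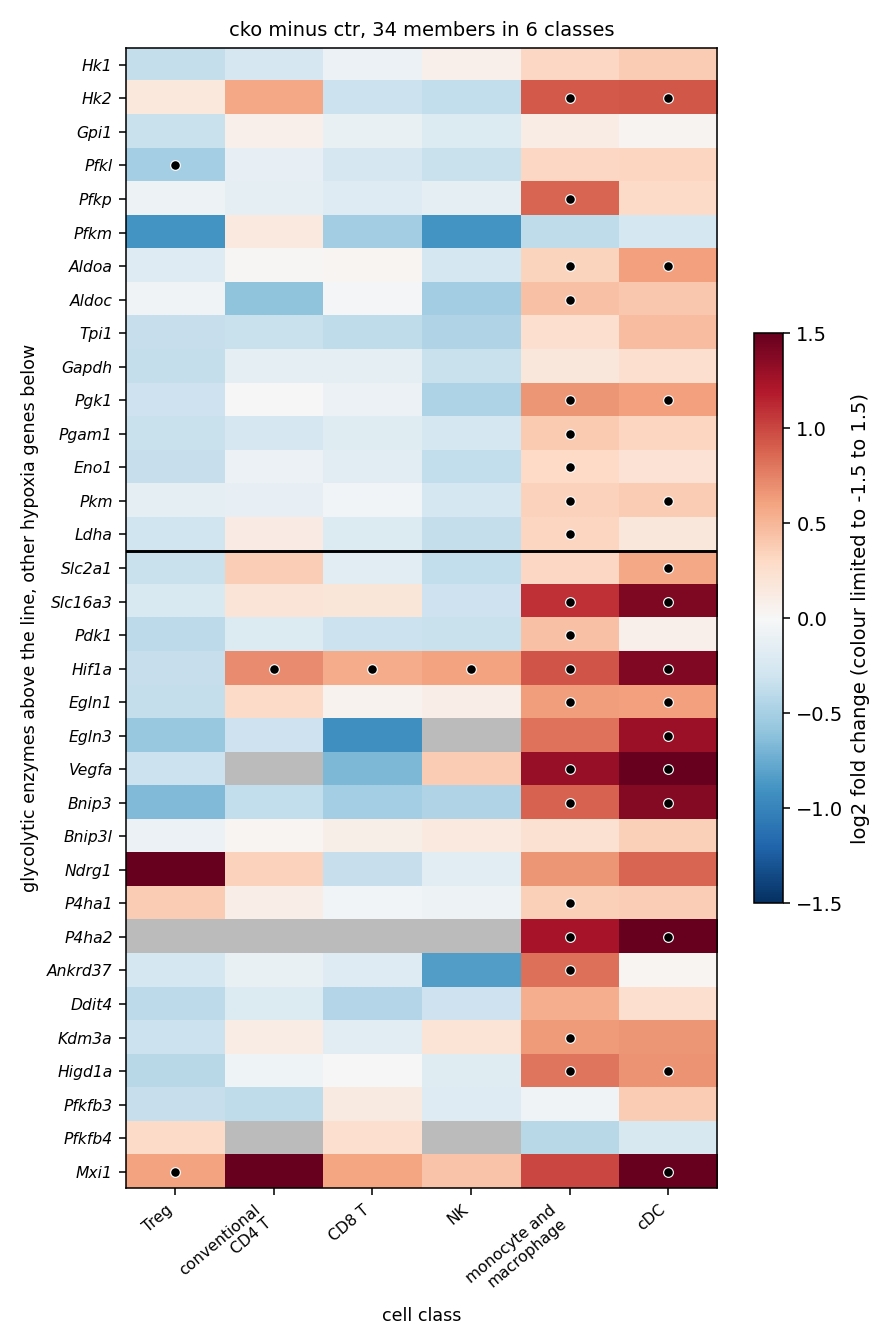
Log2 fold change (cko minus ctr, edgeR) of the 34 genes (rows) in 6 cell classes (columns), in colour from blue (lower in cko) to red (higher), with colours limited to -1.5 to 1.5; black dots mark an adjusted p under 0.05 and grey cells were not tested for low counts. Dots fill 20 of 34 rows in monocytes and macrophages and 14 in cDC, and in the other 4 classes they mark Hif1a, Mxi1 and Pfkl.

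The make-up of the monocyte and macrophage class differed between the groups. Cluster 6, led by Arg1, F10 and Nos2 (Arg1 and Nos2 both consume arginine) and with Vegfa among its 10 leading genes although the 34 genes were left out of the clustering, made up 51.5%, 45.4% and 40.1% of the class in ctr and 82.1%, 74.2% and 80.1% in cko. Clusters 7 and 18, led by macrophage genes such as C1qa and C1qc, held less of the class in cko, with 22.3%, 30.3% and 23.7% against 5.81%, 7.40% and 6.65% for cluster 7 and 19.1%, 11.6% and 20.7% against 1.91%, 1.32% and 3.89% for cluster 18. Cluster 8, led by Ifitm6 and F13a1, held 7.10% to 15.4% in ctr and 9.40% to 17.04% in cko.

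Within cluster 6 alone, 6 genes passed, all higher in cko, where 5.35% of 10278 genes rose: Hk2, Pfkp, Slc16a3, Hif1a, Vegfa and Higd1a. Vegfa stood there at 568, 552 and 617 CPM in ctr and 976, 1035 and 871 CPM in cko, with all cko values above all ctr values (log2 fold change 0.75, standard error 0.10, adjusted p = 0.0016). Hif1a stood at 277, 279 and 306 CPM in ctr and 405, 482 and 418 CPM in cko, likewise apart (log2 fold change 0.62, standard error 0.10, adjusted p = 0.00357). The log2 fold changes of these 6 genes were smaller than in the whole class, and Pgk1 (0.27), Ldha (0.08), Slc2a1 (-0.07) and Bnip3 (0.50) did not pass. In clusters 7 and 18 together, 5 genes passed, all higher, where 1.4% of 9790 genes rose: Hk2, Slc16a3, Hif1a, Vegfa and Higd1a. Vegfa was at 234, 170.2 and 143 CPM in ctr and 415, 453 and 444 CPM in cko in these cells, again with no overlap (log2 fold change 1.26, standard error 0.17, adjusted p = 0.00338). 

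Summed levels within clusters, which carry no test, differed from those of the class. The 15 glycolytic enzymes, higher in every cko sample for the whole class, overlapped between the groups within cluster 6, at 15012 to 17309 CPM in ctr and 15601 to 17189 CPM in cko. Within cluster 7 they also overlapped, at 11274 to 12552 CPM in ctr and 10839 to 11523 CPM in cko, and within cluster 8 every cko value (6515 to 6801 CPM) lay below every ctr value (6855 to 9485 CPM). The 19 other hypoxia genes were higher in every cko sample within cluster 6, at 2634 to 3359 CPM in ctr and 3647 to 4079 CPM in cko, and within cluster 7, at 1531 to 2127 CPM in ctr and 2230 to 2302 CPM in cko. In cluster 8 they were not, at 1207 to 1883 CPM in ctr and 1174 to 1277 CPM in cko, and in cluster 18 the groups overlapped, at 597 to 1051 CPM in ctr and 998 and 1219 CPM in cko.

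**Figure D3:**
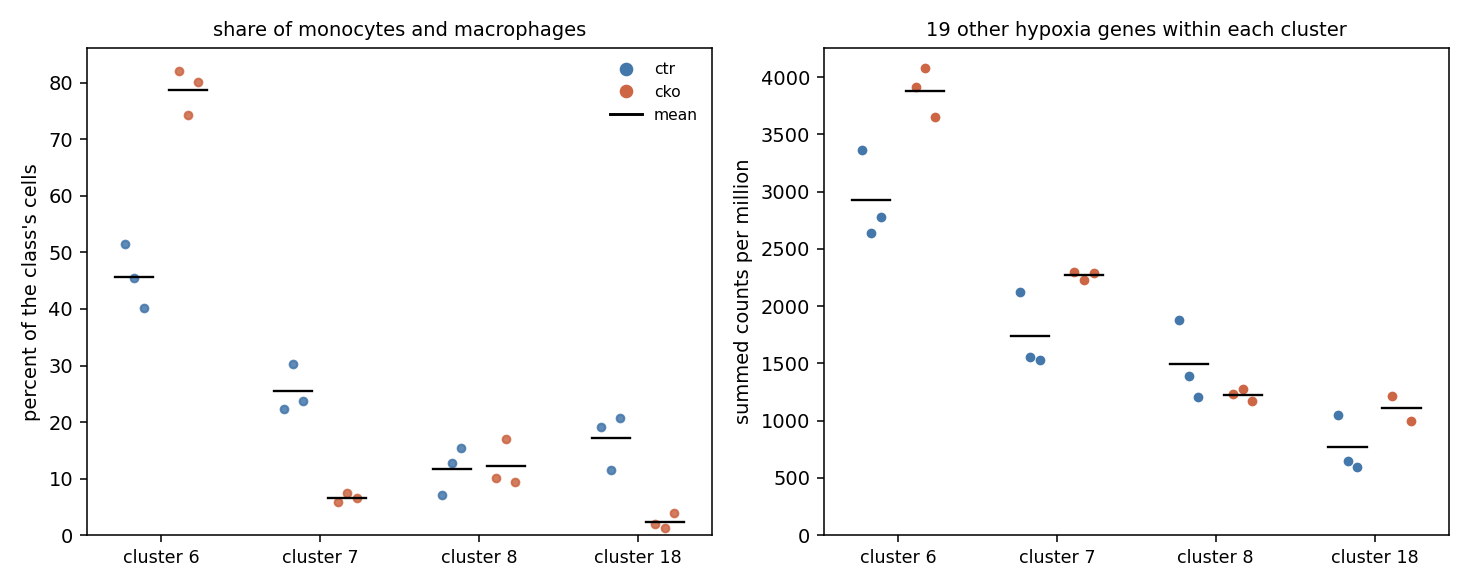
Left, share of the monocytes and macrophages of each sample (percent, axis from 0) in the 4 clusters of that class; right, summed CPM of the 19 other hypoxia genes within each cluster; points are samples and black bars are means. Cluster 6 holds 74.2% to 82.1% of the class in cko against 40.1% to 51.5% in ctr, and within clusters 6 and 7 every cko point lies above every ctr point; cko 2 has no level in cluster 18, where it had 10 cells, under the minimum of 20.

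Other lists moved in the same cells. Of 34 further hypoxia targets, 26 were tested in monocytes and macrophages, and 11 rose and 4 fell. Fam162a, a mitochondrial target of HIF, went from 77.7 ± 5.67 to 151 ± 4.03 CPM (SD, n = 3), log2 fold change 1.02, adjusted p = 0.000215. Ppfia4 went the other way, from 128 ± 18.1 to 50.7 ± 4.22 CPM (SD, n = 3), log2 fold change -1.27, adjusted p = 0.000157. Of 26 further genes of glycolysis and pyruvate use, 18 were tested, and 5 rose, including the myeloid hexokinase Hk3, and 1 fell. None of the 9 tested further genes of oxygen sensing and HIF passed, a list that leaves out Hif1a, Egln1 and Egln3. Of 93 genes of oxidative phosphorylation, 89 were tested, and 21 rose and 2 fell.

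Further gene lists shifted as well, and their part in the result was not tested. The 14 macrophage transcripts, none at 0, summed to 36159 to 39979 CPM in ctr and 19879.5 to 22241 CPM in cko, with 10 lower and 1 higher. The 19 genes of dissociation stress, immediate-early and heat-shock genes that rise when tissue is dispersed, summed to 28274 to 30433 CPM in ctr and 20596 to 23725 CPM in cko, with 9 lower and 2 higher. The 15 proliferation genes summed to 680.2 to 817 CPM in ctr and 588 to 624 CPM in cko, with 11 lower and 0 higher.

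In cDC the genes that passed were also all higher in cko. Of the 34 genes, all tested, 14 rose and 0 fell, where 8.37% of 10060 genes rose and 6.05% fell. These were 4 of 15 glycolytic enzymes (Hk2, Pgk1, Aldoa and Pkm) and 10 of 19 other hypoxia genes, with median log2 fold changes of 0.33 and 0.67 against -0.000868 over all genes tested. Whether the responses of the 2 myeloid classes differ was not tested.

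Hif1a stood at 93.7, 125 and 126 CPM in ctr and 295, 296 and 282 CPM in cko in cDC, with both groups tight and far apart (log2 fold change 1.39, standard error 0.13, adjusted p = 0.000457). Vegfa stood at 45.6, 83.3 and 91 CPM in ctr and 409, 296 and 395 CPM in cko. The fold in the fit was 5.22, and every cko value exceeded 3 times the highest ctr value (log2 fold change 2.38, standard error 0.29, adjusted p = 0.00425). Mxi1 (chr19:53310518-53375810, plus strand), a repressor that competes with Myc for its partner, stood at 27.7, 15.1 and 19.2 CPM in ctr and 71, 51.2 and 63.9 CPM in cko. The groups did not overlap (log2 fold change 1.66, standard error 0.24, adjusted p = 0.00446).

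P4ha2 (chr11:54100095-54131665, plus strand) was counted only 2, 2 and 3 times in ctr and 12, 9 and 12 times in cko. The CPM ratio of the summed counts was 7.88, with an exact 95% interval of 3.43 to 21.1 that covers counting error only (log2 fold change 2.95, standard error 0.47, adjusted p = 0.00513). Hk2 stood at 45.6, 35.7 and 38 CPM in ctr and 75.5, 65 and 77.2 CPM in cko (log2 fold change 0.93, standard error 0.14, adjusted p = 0.004). Higd1a stood at 189, 171 and 177 CPM in ctr and 297, 240.4 and 286 CPM in cko (log2 fold change 0.68, standard error 0.12, adjusted p = 0.00781). In all 3 of these genes the cko samples lay above the ctr samples.

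Bnip3 stood at 75.9, 44.1 and 47 CPM in ctr and 156, 108 and 148 CPM in cko (log2 fold change 1.37, standard error 0.25, adjusted p = 0.0121). Pgk1 stood at 380.4, 314 and 348 CPM in ctr and 548, 421 and 564 CPM in cko (log2 fold change 0.62, standard error 0.15, adjusted p = 0.0231). Slc2a1 passed here, at 161, 132 and 121 CPM in ctr and 211, 167 and 214 CPM in cko (log2 fold change 0.58, standard error 0.15, adjusted p = 0.0308). These 3 genes were apart between the groups, with cko 2 the lowest of the cko samples in each. Ldha stood at 1111, 948 and 1064 CPM in ctr and 1162, 1014 and 1197 CPM in cko with overlapping groups (log2 fold change 0.17, standard error 0.11, adjusted p = 0.342). Slc16a3 (1.40), Egln1 (0.61), Egln3 (1.28), Aldoa (0.61) and Pkm (0.39) also rose, and the other 19 genes ranged from -0.27 (Pfkm) to 0.87 (Ndrg1).

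Of the 14 calls in cDC, 5 held without each sample in turn: Hif1a, Vegfa, Hk2, Mxi1 and P4ha2. The number called was 5 without cko 3, 6 without cko 1, 7 without ctr 2, 8 without ctr 3, 15 without ctr 1 and 23 without cko 2. Here too the shares of all genes called in the same fits are not given. With cko 1 and cko 3 added together, 7 were called, all higher, where 5.34% of all genes were called in either direction. Within cluster 11, which held 86.5% to 94.9% of the class, the same 14 genes passed, where 16.4% of all genes did.

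The per-cell gates called 20.73%, 41.3% and 38.18% of the cDC class monocyte or macrophage in ctr and 62.46%, 40.78% and 57.2% in cko. Without those cells 4 of 32 genes tested passed, Hif1a, Vegfa, Hk2 and Higd1a, all higher, where 7.64% of all genes passed in either direction. Vegfa then stood at 31.3, 25.7 and 44.2 CPM in ctr and 190.4, 164 and 267 CPM in cko, with no overlap (log2 fold change 2.68, standard error 0.26, adjusted p = 0.000808). Hif1a stood at 69.9, 97.1 and 112 CPM in ctr and 251, 219 and 197 CPM in cko, also apart (log2 fold change 1.31, standard error 0.18, adjusted p = 0.00199). The other 10 of the 14 genes did not pass or were too low to test.

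In cDC too, other lists moved and their part in the result was not tested. The macrophage transcripts summed to 1912 to 3886 CPM in ctr and 4723 to 5437 CPM in cko, with Fcer1g and Arg1 higher and 0 lower. The dissociation stress genes summed to 20477 to 24911 CPM in ctr and 15991 to 19081 CPM in cko, with 8 lower and 1 higher, and the proliferation genes to 1479 to 2321 CPM in ctr and 904 to 1125 CPM in cko, with 11 lower. Of the further hypoxia targets, 7 of 24 tested rose and 1 fell, led by Ero1l, an oxidase of the endoplasmic reticulum, which went from 42.4 ± 9.78 to 121 ± 18.6 CPM (SD, n = 3), log2 fold change 1.59, adjusted p = 0.0034. Of the further glycolysis genes 3 of 16 rose and 1 fell. Of the further oxygen sensing and HIF genes, which leave out Hif1a, 1 of 8 rose. It was Arnt, the partner of the alpha subunits, which went from 17.1 ± 1.33 to 24.3 ± 1.39 CPM (SD, n = 3), log2 fold change 0.57, adjusted p = 0.029.

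In lymphoid cells other than Treg cells the one gene of the 34 that passed was Hif1a. It rose in conventional CD4 T, CD8 T and NK cells, where 0.906%, 2.26% and 0.648% of the genes tested rose and 0.209%, 1.93% and 0.616% fell. The numbers of the 34 genes tested in these classes were 31, 33 and 31. At an unadjusted p under 0.05, 4, 4 and 7 of them passed, where 14%, 21.9% and 15.8% of all genes tested did.

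In conventional CD4 T cells Hif1a stood at 454, 342 and 474 CPM in ctr and 658, 665 and 741 CPM in cko (log2 fold change 0.71, standard error 0.14, adjusted p = 0.0236). In CD8 T cells it stood at 290.0, 215 and 262 CPM in ctr and 371, 405 and 387 CPM in cko (log2 fold change 0.56, standard error 0.11, adjusted p = 0.0293). In NK cells it stood at 83.3, 76.8 and 102 CPM in ctr and 141, 141 and 143 CPM in cko (log2 fold change 0.60, standard error 0.12, adjusted p = 0.0204). All cko values were above all ctr values in each of the 3 classes. With cko 1 and cko 3 added together the adjusted p was 0.174, 0.101 and 0.103 in the same order, with log2 fold changes of 0.72, 0.58 and 0.60. In conventional CD4 T cells the call was lost without ctr 3, cko 1 or cko 3, in CD8 T cells without ctr 3 or any 1 cko sample, and in NK cells without ctr 2 or any 1 cko sample; all 3 held without ctr 1. The log2 fold changes with 1 sample left out were 0.576 to 0.792, 0.448 to 0.678 and 0.51 to 0.734 in the same order. With per-cell marker gates in place of clusters, the value in conventional CD4 T cells was 0.30 (adjusted p = 0.927). Without a filter on low counts 7 genes passed in NK cells, 6 of them lower, where 3.64% of all genes passed.

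CD8 T cells too differed in make-up, as did conventional CD4 T cells of ctr 1 and ctr 3, with ctr 2 inside the cko range. The main NK cluster, 14, held 81.7% to 91.3% of its class in ctr and 86.4% to 89.9% in cko. In conventional CD4 T cells cluster 12, led by Tnfsf11, held 47.2%, 93.0% and 44.3% of the class in ctr and 98.1%, 90.6% and 97.4% in cko, and cluster 17, with Ccr6 and Il17re among its leading genes, held the rest. Within cluster 12, 4 of 31 genes tested passed, where 8.12% of all genes did, Hif1a higher (0.67, adjusted p = 0.00643) and Aldoc (-0.98, adjusted p = 0.0335), Gapdh (-0.37, adjusted p = 0.0478) and Pgam1 (-0.54, adjusted p = 0.0373) lower. CD8 T cells lay in 9 clusters. Shares overlapped between the groups in clusters 1, 6 and 8 and were apart in the others. Among those apart, cluster 2 held 25.0%, 38.0% and 35.7% in ctr and 9.79%, 8.53% and 8.21% in cko. Cluster 4 held 7.76%, 3.98% and 5.27% in ctr and 18.9%, 22.3% and 21.8% in cko. Dissociation stress genes summed to 16888 to 24679.5 CPM in ctr and 15435 to 16679 CPM in cko in conventional CD4 T cells, to 15863 to 21058 CPM in ctr and 11676 to 13751 CPM in cko in CD8 T cells and to 11931 to 15009.6 CPM in ctr and 10271 to 12800.5 CPM in cko in NK cells, with 2, 3 and 1 of them lower; their part in the result was not tested.

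Treg cells, the target of the knockout, had mostly negative values, few of which passed. Of 33 genes tested, Mxi1 rose and Pfkl fell, where 4.02% of 9669 genes rose and 3.35% fell, and 14 passed at an unadjusted p under 0.05, where 21.6% of all genes tested did. Of the 15 glycolytic enzymes, 14 had a negative log2 fold change and 1 of these passed, with a median of -0.34, and the 18 other hypoxia genes tested had a median of -0.33, against -0.00157 over all genes tested. Glycolytic enzymes leaned the same way in the other lymphoid classes, and none passed there: 14 of 15 were negative in NK cells (median -0.33) and in CD8 T cells (median -0.16) and 10 of 15 in conventional CD4 T cells (median -0.12). Over all genes tested, 51%, 49.4% and 49.3% were positive in the same order, and 49.9% in Treg cells. Sample ctr 1 was the highest ctr sample for 28 of the 34 genes in Treg, 29 in NK, 32 in CD8 T and 21 in conventional CD4 T cells. The lean was not counted without ctr 1. Without the filter on low counts 12 genes passed in Treg cells, 11 of them lower, where 7.69% of all genes passed, and with per-cell marker gates 0 did, where 1.08% of all genes passed and 7 of the 32 tested were under 0.05 unadjusted.

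Mxi1 stood at 75.1, 66.2 and 76 CPM in ctr and 114, 109 and 125 CPM in cko in Treg cells, with all cko values above all ctr values (log2 fold change 0.60, standard error 0.12, adjusted p = 0.00535). Pfkl (chr10:77986947-78010083, minus strand) stood at 119, 90.3 and 90.1 CPM in ctr and 70.6, 68.5 and 82.6 CPM in cko, with all cko values below (log2 fold change -0.51, standard error 0.15, adjusted p = 0.0469). Hif1a stood at 654, 540.4 and 635 CPM in ctr and 512, 480.3 and 532 CPM in cko. Its cko samples were below its ctr samples, but it did not pass (log2 fold change -0.34, standard error 0.11, adjusted p = 0.0676). In ctr mice the level of Hif1a was highest in Treg cells and next in conventional CD4 T cells, with no overlap between them. CD8 T cells and monocytes and macrophages followed and overlapped, and cDC and NK cells were lowest and overlapped.

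The Treg class was also made up differently. Lymphoid cells were clustered and numbered on their own. Their cluster 10, with Lrrc32, Izumo1r and Ccr8 among its leading genes, held 90.4%, 81.3% and 82.9% of the class in ctr and 22.5%, 32.9% and 25.3% in cko. Their cluster 7, led by Foxp3, the factor that defines Treg cells, held 3.33%, 3.76% and 5.69% in ctr and 58.7% to 60.8% in cko, and cluster 13, led by interferon-induced genes such as Rsad2, held the rest. Within cluster 10 alone 0 of 32 genes tested passed, 1 at an unadjusted p under 0.05, where 0.389% of all genes passed: Mxi1 was at 0.29 (adjusted p = 0.56) and Pfkl at -0.46 (adjusted p = 0.437). The Mxi1 call held with cko 1 and cko 3 added together (log2 fold change 0.58, adjusted p = 0.0338) and without ctr 1, and was lost without cko 3; the Pfkl call was lost with the 2 samples added (log2 fold change -0.53, adjusted p = 0.122) and without ctr 1 or any 1 cko sample. Summed macrophage transcripts were at 1127 to 1397 CPM in ctr and 816 to 986 CPM in cko in Treg cells, with 1 of 11 tested lower, dissociation stress genes at 18573 to 27502 CPM in ctr and 16961 to 18104 CPM in cko, with 3 lower, and proliferation genes at 1104 to 1246 CPM in ctr and 869.8 to 1065 CPM in cko, with 2 lower; their part in the result was not tested.

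Among the wider lists, the glucose carrier Slc2a3 (GLUT3) rose in all 3 T cell classes. It also rose at a low level in monocytes and macrophages, from 1.07 ± 0.307 to 2.42 ± 0.362 CPM (SD, n = 3), log2 fold change 1.28, adjusted p = 0.0163. In Treg cells it went from 30.5 ± 5.42 to 53.9 ± 10.9 CPM (SD, n = 3), log2 fold change 0.73, adjusted p = 0.0158. Its conventional CD4 T cell level went from 25.8 ± 5.85 to 47.9 ± 1.64 CPM (SD, n = 3), log2 fold change 0.87, adjusted p = 0.0454. In CD8 T cells it went from 49.5 ± 6.89 to 78.1 ± 1.41 CPM (SD, n = 3), log2 fold change 0.63, adjusted p = 0.0128. Slc2a3 was 1 of 13 further glycolysis genes tested in Treg cells, 1 of 11 in conventional CD4 T cells and 1 of 18 in CD8 T cells, where Tigar also rose and Eno3 fell. Fam162a, which rose in both myeloid classes, fell in Treg cells, from 144 ± 4.44 to 98 ± 11.6 CPM (SD, n = 3), log2 fold change -0.64, adjusted p = 0.00282, the only one of 20 further hypoxia targets to pass there. Epas1, which encodes HIF-2 alpha, went from 7.49 ± 1.04 to 25.9 ± 2.86 CPM (SD, n = 3), log2 fold change 1.82, adjusted p = 0.00469, in conventional CD4 T cells. Of 20 further hypoxia targets tested in that class, 2 rose and 0 fell. These were Bhlhe40 (log2 fold change 0.63, adjusted p = 0.0149), also a marker that named the class, and Hilpda (log2 fold change 0.71, adjusted p = 0.0241). In CD8 T cells 1 of 24 rose, Rora (log2 fold change 1.51, adjusted p = 0.0227), and in NK cells 0 of 20 passed.

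Treg cells were compared with conventional CD4 T cells and with monocytes and macrophages by a test of the difference of log2 fold changes, with the sample as a block (edgeR, adjusted over all genes). Against conventional CD4 T cells, 5 of 32 genes tested differed, 4 lower in Treg cells and 1 higher, where 2.39% of 9238 genes were lower and 1.01% higher. Hif1a had the smallest p (difference -1.08, standard error 0.11, adjusted p = 6.66e-05), with Ldha (difference -0.43, standard error 0.10, adjusted p = 0.0288), Slc2a1 (difference -0.69, standard error 0.17, adjusted p = 0.0352) and Gpi1 (difference -0.42, standard error 0.11, adjusted p = 0.0468) also lower. Ndrg1, a stress-response gene, was higher (difference 1.35, standard error 0.26, adjusted p = 0.0121). Ndrg1 stood at 92.8, 39.7 and 37.2 CPM in ctr and 224, 115 and 218 CPM in cko in Treg cells and at 43.2, 27.3 and 31.2 CPM in ctr and 49.4, 37.9 and 40.8 CPM in cko in conventional CD4 T cells. It passed in neither class on its own; in Treg cells every cko value was above every ctr value (log2 fold change 1.65, standard error 0.53, adjusted p = 0.182). Gpi1 and Ndrg1 were named after their values were seen. The count of 5 became 2 without ctr 1, 4 without ctr 2, 3 without ctr 3 or cko 2 and 1 without cko 1 or cko 3, and it was 1 with cko 1 and cko 3 added together. Which of the 5 genes were lost is not given. For Slc2a1 in Treg cells, ctr 1 lay above all other samples.

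Against monocytes and macrophages, 24 of 34 genes differed, 23 lower in Treg cells and Ndrg1 higher, where 5.58% of 11568 genes were lower and 4.17% higher. The 13 glycolytic enzymes among them, all but Pfkm and Aldoc, differed by -0.46 (Gpi1) to -0.97 (Pgk1). Among the others the differences with the largest size were Bnip3 (difference -1.46, standard error 0.18, adjusted p = 0.000181), Egln3 (difference -1.42, standard error 0.28, adjusted p = 0.00542) and Slc16a3 (difference -1.31, standard error 0.15, adjusted p = 4.32e-05). Vegfa, at under 15 CPM in Treg cells, did not pass (difference -1.60, standard error 0.60, adjusted p = 0.183). Without single samples the count ranged from 19 to 25.

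The remaining core genes in lymphoid cells overlapped between the groups in most classes, and none passed. Slc2a1 stood at 222, 107 and 116 CPM in ctr and 127, 114 and 133 CPM in cko in Treg cells, and at 98, 56.1 and 76.5 CPM in ctr and 103, 96.3 and 99.8 CPM in cko in conventional CD4 T cells. It stood at 131, 68.8 and 87.2 CPM in ctr and 78.9, 103 and 85.4 CPM in cko in CD8 T cells, and at 98.8, 59.5 and 73.4 CPM in ctr and 67.4, 59.9 and 65.9 CPM in cko in NK cells. In all 4 classes ctr 1 was the highest ctr sample, and in Treg, CD8 T and NK cells it lay above all other samples.

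Pgk1 stood at 767, 556 and 514 CPM in ctr and 481, 517 and 566 CPM in cko in Treg cells, and at 591, 544 and 556 CPM in ctr and 568, 496 and 596 CPM in cko in conventional CD4 T cells. It stood at 777, 553 and 628 CPM in ctr and 569.8, 764 and 566 CPM in cko in CD8 T cells, and at 593, 409 and 429.8 CPM in ctr and 396, 389.9 and 325 CPM in cko in NK cells. The groups overlapped in the T cell classes and were apart in NK cells, where cko was lower without passing (log2 fold change -0.46, standard error 0.16, adjusted p = 0.211). Ldha stood at 1725, 1439 and 1272 CPM in ctr and 1220.3, 1281 and 1305 CPM in cko in Treg cells, and at 1324, 1475 and 1192 CPM in ctr and 1419.7, 1333 and 1526 CPM in cko in conventional CD4 T cells. It stood at 1529, 1213 and 1289 CPM in ctr and 1018, 1483 and 1102 CPM in cko in CD8 T cells, and at 1318, 1029.9 and 1075 CPM in ctr and 989, 997 and 859.7 CPM in cko in NK cells. Again only the NK groups were apart (log2 fold change -0.35, standard error 0.12, adjusted p = 0.15).

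Vegfa was scarce in T cells, at 13.6, 3.52 and 6.12 CPM in ctr and 11.1, 4.78 and 3.62 CPM in cko in Treg cells. Conventional CD4 T cells stood at 8.09, 4.1 and 1.84 CPM in ctr and 6.22, 4.21 and 4.75 CPM in cko, too few counts to test, and in CD8 T cells at 11.1, 2.95 and 5.57 CPM in ctr and 4.39, 4.19 and 4.48 CPM in cko. NK cells had more, at 63.4, 48.9 and 65 CPM in ctr and 55.4, 114 and 82.8 CPM in cko, with overlapping groups (log2 fold change 0.38, standard error 0.26, adjusted p = 0.539), and also had more macrophage transcripts than T cells (4056 to 4699 CPM in ctr and 3809 to 4249 CPM in cko), whose part in the level was not tested. Bnip3 stood at 188, 73.4 and 66.9 CPM in ctr and 72.7, 70.9 and 75.9 CPM in cko in Treg cells, and at 37.8, 6.84 and 18.4 CPM in ctr and 21, 6.62 and 20.1 CPM in cko in conventional CD4 T cells. It stood at 94.1, 36.6 and 54.4 CPM in ctr and 37.5, 60.6 and 36.9 CPM in cko in CD8 T cells, and at 58.2, 35.6 and 29.4 CPM in ctr and 30.1, 43.1 and 26.7 CPM in cko in NK cells. The Bnip3 groups overlapped in all 4 classes, with ctr 1 above every other sample of its class.

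**Figure D4:**
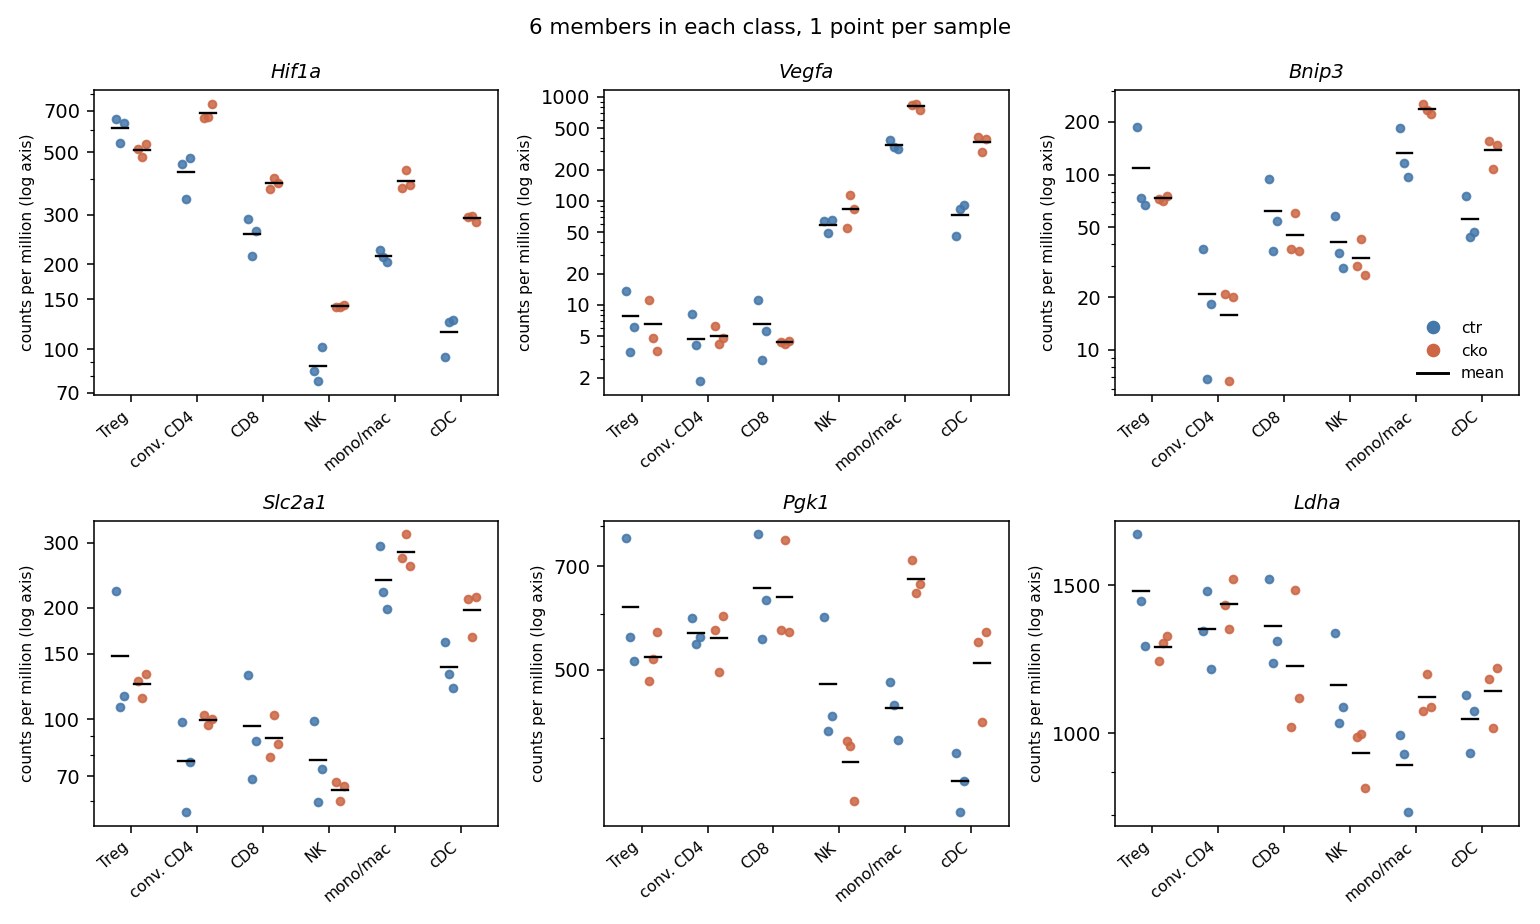
CPM (log axes) of 6 genes in 6 cell classes, 1 point per sample (blue ctr, orange cko), with black bars for the mean of 3. Hif1a is higher in cko in every class but Treg, where all cko points lie below all ctr points, and Vegfa and Bnip3 are higher in cko in the 2 myeloid classes.

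The other genes in lymphoid cells spanned a wide range without passing. They ran in conventional CD4 T cells from -0.61 (Aldoc) to 1.64 (Mxi1), in CD8 T cells from -0.92 (Egln3) to 0.59 (Mxi1) and in NK cells from -0.89 (Pfkm) to 0.43 (Mxi1), leaving out Hif1a. P4ha2 was too low to test in all 4 lymphoid classes, Pfkfb4 in conventional CD4 T and NK cells, Vegfa in conventional CD4 T cells and Egln3 in NK cells.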

How the data were processed

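Counts of UMIs per gene and cell barcode were deposited for each sample by the authors, and the submitters' processing notes name Cell Ranger 7.0.0 and the mouse build GRCm38 (mm10). They came together with tables of assembled TCR contigs and their UMI counts. Counting settings such as the use of introns are not stated there. Of 41679 barcodes, 39424 passed a minimum of 300 genes and 500 UMIs and a maximum of 10% of UMIs from mitochondrial genes. Scrublet's automatic cut-off marked 231 of these, so the barcodes with the highest doublet scores were removed at 0.8% per 1000 barcodes (2084), which left 37340.

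Cells were clustered (scanpy 1.11.5, leidenalg 0.10.2, 2000 variable genes without the genes of the lists described, 30 components, 15 neighbours, resolution 1 and 1.5 for T and NK cells) and clusters were named from marker lists. Rules that leave out clusters, chosen after seeing the data, kept unnamed clusters (13.61% of ctr and 17.98% of cko cells, mostly of low UMI count), clusters with both Cd4 and Cd8a (1.351% and 1.651%) and naive or central memory T cells (3.237% and 5.241%) out of the classes. A difference from names the authors may use can come from these rebuilt classes.

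Counts were summed per sample and class, filtered with filterByExpr, scaled by TMM and tested with edgeR 4.0.16 (quasi-likelihood, R 4.3.3, limma 3.58.1), cko against ctr, with Benjamini-Hochberg adjustment over all genes tested in a class and calls at 0.05. Differences between classes were fitted with the sample as a block. CPM values are counts per 1000000 UMIs of the class. The script was tested on simulated data.

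The 34 genes, the lists and the tests were chosen with earlier results of these data known. Hif1a, Slc2a1, Pgk1, Ldha, Vegfa and Bnip3 were named in every class, with up to 8 called genes per class by adjusted p and up to 3 called genes per further list. Slc2a3 in monocytes and macrophages was named beyond this rule. Alternatives were other normalizations, DESeq2 1.42.0, no filter on low counts, each sample left out, a replicate block, cko 1 and cko 3 added together, marker gates per cell and named low-UMI clusters; analyses of single clusters, of added or removed resting and cycling clusters and without cells that the gates place in another class were chosen after seeing the data.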

Additional observations from a re-analysis of the deposited data

Results flagged for a closer look

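The genotype effect differed between Treg cells and 2 other classes for 29 pairs of gene and class, each by a test of the difference itself (log2 fold change in Treg cells minus that in the other class, edgeR, adjusted over all genes tested). Against conventional CD4 T cells the differences were -0.42 for Gpi1, -0.43 for Ldha, -0.69 for Slc2a1, -1.08 for Hif1a and 1.35 for Ndrg1. The level of Slc2a1 in Treg cells was higher in ctr 1 than in all other samples. Against monocytes and macrophages the glycolytic enzymes differed by -0.68 (Hk1), -0.77 (Hk2), -0.46 (Gpi1), -0.83 (Pfkl), -0.93 (Pfkp), -0.54 (Aldoa), -0.57 (Tpi1), -0.53 (Gapdh), -0.97 (Pgk1), -0.72 (Pgam1), -0.64 (Eno1), -0.50 (Pkm) and -0.63 (Ldha). The other hypoxia genes differed by -0.59 (Slc2a1), -1.31 (Slc16a3), -0.84 (Pdk1), -1.29 (Hif1a), -0.98 (Egln1), -1.42 (Egln3), -1.46 (Bnip3), 0.95 (Ndrg1), -1.09 (Ankrd37), -0.97 (Kdm3a) and -1.22 (Higd1a). The classes compared share their 6 samples, and within the Treg, conventional CD4 T and monocyte and macrophage classes the clusters took different shares in ctr and cko.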

How the results depend on the processing

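In Treg cells the count of 2 became 1 with library totals alone, with DESeq2 and with cko 1 and cko 3 added together, 12 without a filter on low counts, and 0 with marker gates, with the largest cluster alone and with the cycling CD4 cluster added. In conventional CD4 T cells the count of 1 became 2 with DESeq2 or no filter, 4 in the largest cluster, and 0 with cko 1 and cko 3 added together, with gates and with the resting cluster added. In CD8 T cells 1 became 2 with DESeq2 and 0 with the samples added together or gates, and in NK cells 1 became 7 without a filter and with low-UMI clusters named, 4 with gates and 0 with the samples added together. In monocytes and macrophages 20 became 10 with the samples added together, 5 in macrophage clusters and 6 in the largest cluster, and in cDC 14 became 7 with the samples added together and 4 without cells gated as monocyte or macrophage. The difference between Treg and conventional CD4 T cells went from 5 genes to 1 with the samples added together and to 3 with gates, of which 1 was among the 5. Egln1 in macrophage clusters was at -0.0198 against 0.63 in the class. With gates the summed level (log2, cko minus ctr) was 0.0913 for glycolytic enzymes in conventional CD4 T cells (-0.114 with clusters) and -0.305 for the other hypoxia genes in Treg cells (-0.12 with clusters). With 1 sample left out, counts ranged from 0 to 4 in Treg, 0 to 2 in conventional CD4 T, 0 to 1 in CD8 T and NK cells, 9 to 29 in monocytes and macrophages, 5 to 23 in cDC and 1 to 4 for Treg against conventional CD4 T cells. The shares of all genes called with 1 sample left out are not given beside these counts. The cause of these moves was not tested. Of 956 values for single genes under an alternative, 769 stayed on the same side of the threshold. Those past the threshold also kept their direction, which was not compared for values that did not pass.

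A replicate block gave 4 calls in Treg, 2 in conventional CD4 T, 0 in CD8 T and 1 in NK cells, 24 in monocytes and macrophages and 16 in cDC. Same-numbered samples deviated together with correlations of -0.105 to 0.192 and in no class were all 3 over 0.1, so the numbers were not taken to pair samples; in CD8 T cells 3 of 3 pairs correlated best with their own number.

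With library totals in place of TMM the median of all genes in NK cells shifted to 0.103, and the split of higher and lower genes went from 389 and 324 to 551 and 228 in Treg, from 260 and 222 to 333 and 196 in CD8 T, from 61 and 58 to 132 and 40 in NK cells, from 1392 and 1303 to 1110 and 1619 in monocytes and macrophages and from 842 and 609 to 750 and 725 in cDC. Marker gates were not run for cDC, with under 20 cells in 1 sample. Depth limits low genes such as P4ha2, and Vegfa in T cells.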
